A study of Mus musculus with 11 samples.

Results

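Mitosis and spindle genes were followed over 4 groups of mouse microglia. They were a list of 48 genes that carry a cell through division, from the CDK1 kinase and its cyclins to the proteins of the spindle, the kinetochore and the cleavage furrow. Members were found by pairing the RefSeq accession printed with each array probe to a gene symbol, and 46 of the 48 had a probe. No probe was matched for Aurka, which encodes the Aurora A kinase of the spindle poles, or for Smc2, a condensin subunit. Each of these 46 passed the filter on dim probes, among 19555 genes tested in all. The value of a gene is its log2 quantile-normalised signal intensity, averaged over its probes.

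RNA was measured on 11 single-colour arrays. All mice were C57BL/6N, and the newborns were of both sexes. A_FACS (2 arrays) was microglia of adult female mice, sorted by flow cytometry and not cultured. NB_FACS (3 arrays) was newborn microglia taken in the first postnatal days, likewise sorted and not cultured. NB_Control (3 arrays) and NB_Stim (3 arrays) were newborn microglia shaken off mixed glial flasks and then kept for 1 day as a monoculture in serum medium. The flasks had been seeded from pooled brains and fed with M-CSF-rich L-929 conditioned medium. By the study's protocol, microglia are shaken off only after weeks of growth in these flasks. NB_Stim alone received the human cytokines CX3CL1, IL-34 and TGF-β1 (each cytokine at 100 ng/mL). The labels name no transgene or deletion in any group. Isolation, time in culture and the prior weeks of growth in mixed flasks therefore differ together between sorted and cultured cells. Sex and age differ together between the sorted groups.

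During mitosis, CDK1 bound to cyclin A or cyclin B phosphorylates a large set of proteins, chromosomes condense, and microtubules attach to them at the kinetochore. The spindle assembly checkpoint holds back the anaphase-promoting complex until every chromosome is attached. That complex then marks cyclin B and securin for destruction, the sister chromatids part, and the central spindle directs the cleavage furrow. Many of these genes are transcribed mainly in G2 and M phase, so that in a mixture of cells their mRNA is low where few cells divide. Microglia multiply in the newborn brain and divide rarely in the adult. In RNA of bulk samples, fewer dividing cells and less of these mRNAs per cell cannot be told apart.

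All 7 tested microglia markers, among them Tmem119, P2ry12 and Cx3cr1, were well above background on every array of the 4 groups. Aif1 was not tested. Their summed linear intensity spanned 189400 to 217980 in A_FACS, 98155 to 121690 in NB_FACS, 13463 to 39219 in NB_Control and 73622 to 88818 in NB_Stim. In NB_Control, replicate 3 alone was at 13463, and replicates 1 and 2 were at 37790 and 39219. The share of probes well above background ran from 66.8% to 80.4% over the arrays, no spot was saturated, and the median of all genes lay between 7.13 and 7.27. The number of arrays limits the precision. Replicate 3 of each newborn group sat on slide 2 and the other 8 arrays on slide 1.

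Sorted newborn microglia carried by far the highest levels of the list. The median of the 46 genes was 10.25, 10.31 and 10.56 on the NB_FACS arrays, against 7.31, 7.17 and 7.62 on NB_Control, 6.42, 6.64 and 7.16 on NB_Stim and 6.08 and 7.40 on A_FACS. The NB_FACS arrays stood apart from the other 8. Among these, NB_Control lay just above NB_Stim, and the adult pair was spread across both. The 2 adult arrays were unlike each other: 41 of the 46 genes were higher on the second, by a median of 1.02 on the log2 scale, while 51.1% of all genes were higher there. On the first adult array Dlgap5, Ect2, Melk and Ttk were not well above background, so that their adult level was measured on the second array only.

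**Figure D1:**
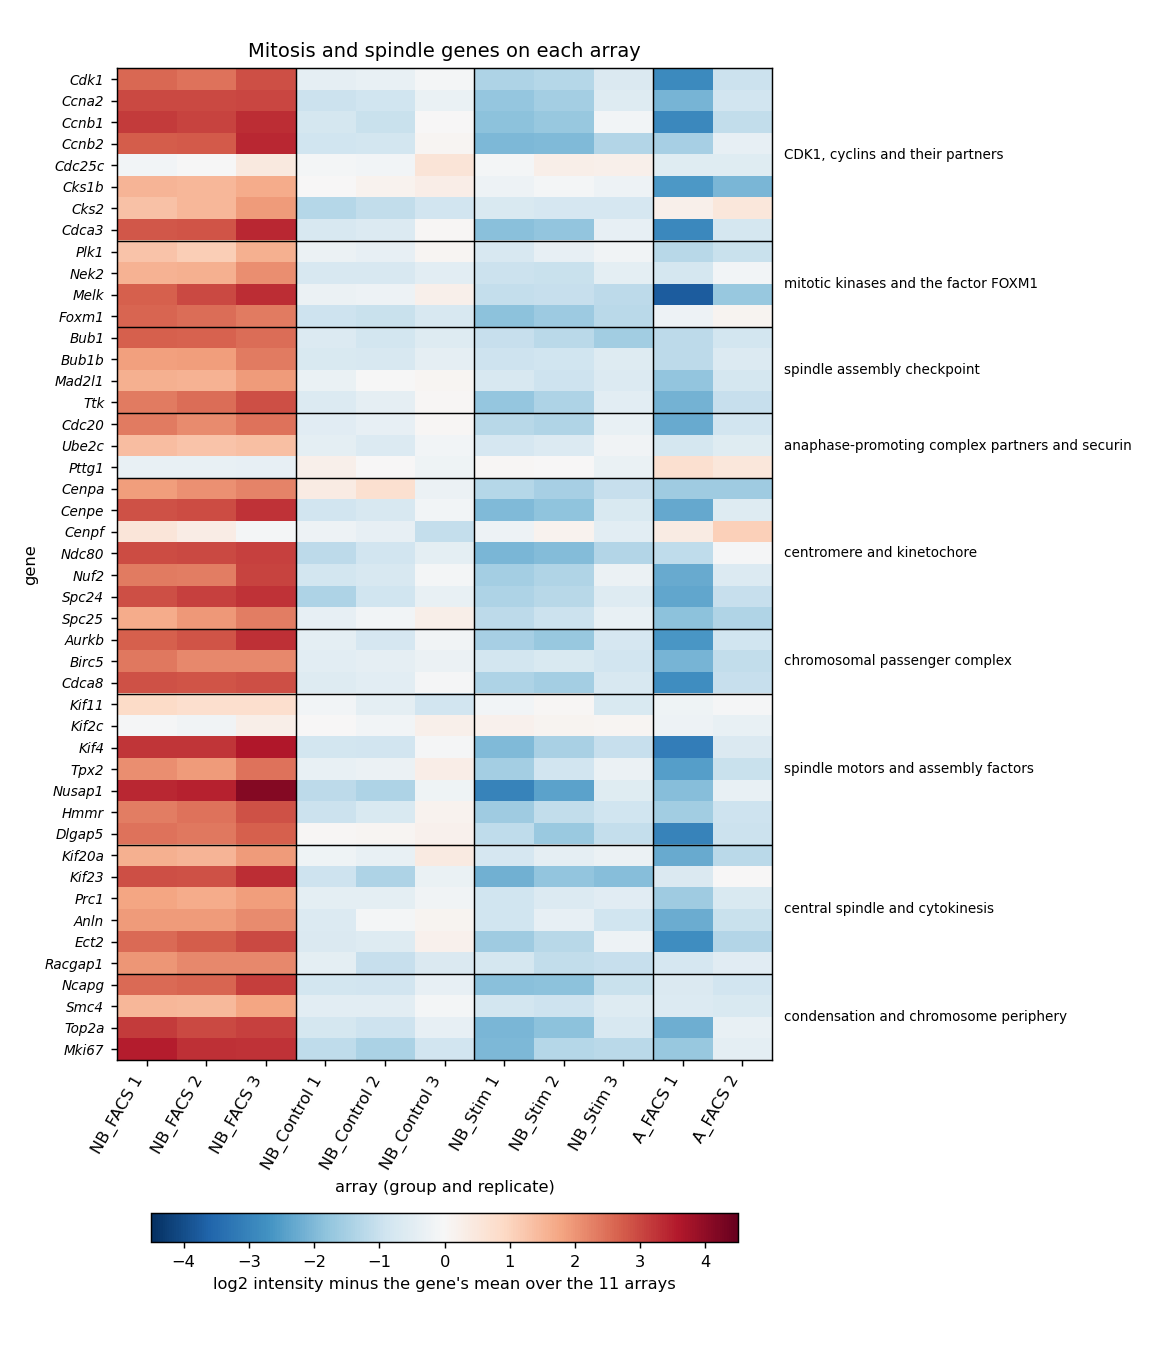
Rows are the 46 genes in their role classes and columns are the 11 arrays; colour is the log2 intensity minus the gene's mean over all arrays, red above and blue below. The 3 NB_FACS columns are red in nearly every row, the other 8 are mostly blue, and Cdc25c, Kif2c, Pttg1 and Cenpf are pale rows.

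The first comparison asked how cultured newborn microglia differ from freshly sorted ones. In NB_Control, 42 of the 46 genes fell (limma adjusted p under 0.05) and none rose, where 13.9% of all genes were called lower and 15.8% higher. At an unadjusted limma p under 0.05, 44 of the 46 differed, as did 7657 of all 19555 genes. The median log2 difference over the list was -2.86, against 0.09 over all genes. In 43 genes every NB_Control array lay below every NB_FACS array, which held for 20.2% of all genes, and in 1, Pttg1, every one lay above (24% of all genes). Within slide 1 the median was -2.85, and within slide 2, with 1 array of each group, it was -2.78.

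Mki67, whose product coats the mitotic chromosome surface and serves as the usual stain for cycling cells, read 11.48, 11.22 and 11.21 in NB_FACS and 6.79, 6.52 and 7.09 in NB_Control. It was 5.92, 6.67 and 6.74 in NB_Stim and 6.25 and 7.498 in A_FACS. The sorted newborn arrays were high and the other 8 low, with no overlap. The difference of NB_Control from NB_FACS was -4.503 ± 0.33 (SE), a 22.7-fold change (limma adjusted p = 9.5e-06). Nusap1, which bundles microtubules close to the chromosomes, had the greatest fall, 4.57 on the log2 scale or 23.8-fold (SE 0.63, limma adjusted p = 0.00044). Its values were 10.75, 10.83 and 11.495 in NB_FACS, 6.21, 5.99 and 7.17 in NB_Control, 4.38, 4.98 and 6.81 in NB_Stim and 5.47 and 7.04 in A_FACS. Replicate 3 was the highest array of each newborn group for this gene.

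Among CDK1, the cyclins and their partners, 7 of 8 genes fell. Cdk1 itself, the kinase that starts mitosis, read 12.92, 12.78 and 13.25 in NB_FACS, 9.91, 10.004 and 10.25 in NB_Control, 8.95, 9.06 and 9.69 in NB_Stim and 7.48 and 9.37 in A_FACS. The 3 newborn groups did not overlap, and the adult pair was spread over a range that crossed NB_Stim. Ccnb1, the cyclin B1 subunit that CDK1 needs, was at 11.23, 11.14 and 11.43 in NB_FACS, 7.30, 7.09 and 8.12 in NB_Control, 6.26, 6.41 and 7.96 in NB_Stim and 5.19 and 6.99 in A_FACS. It fell by 3.76 on the log2 scale (SE 0.54, limma adjusted p = 0.00055). Log2 differences of -3.72 for Ccna2 (cyclin A2), -3.51 for Ccnb2 (cyclin B2) and -3.44 for Cdca3, a trigger of mitotic entry, were close to it. Cdc25c, a phosphatase that activates CDK1, did not follow: 6.42, 6.54 and 6.97 in NB_FACS, 6.45, 6.41 and 7.11 in NB_Control, 6.45, 6.80 and 6.78 in NB_Stim and 5.998 and 6.005 in A_FACS. Its newborn groups overlapped, and its difference was 0.01 with a 95% interval of -0.48 to 0.51.

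All 4 measured genes of the mitotic kinases and FOXM1 fell. Foxm1, the transcription factor that drives many G2 and M phase genes, was at 10.86, 10.75 and 10.57 in NB_FACS, 7.31, 7.25 and 7.53 in NB_Control, 6.39, 6.59 and 7.03 in NB_Stim and 8.00 and 8.36 in A_FACS. Its 4 groups did not overlap, and NB_Stim was the lowest of them. Plk1, the Polo-like kinase that acts at spindle poles and kinetochores, moved less: 11.38, 11.19 and 11.70 in NB_FACS, 9.83, 9.73 and 10.19 in NB_Control, 9.37, 9.71 and 9.93 in NB_Stim and 8.84 and 9.09 in A_FACS. The Foxm1 difference was -3.36 ± 0.19 (limma adjusted p = 2.3e-06) and that of Plk1 -1.51 ± 0.20 (limma adjusted p = 0.00038). Nek2, which separates centrosomes, fell by 2.40, and Melk, a kinase of dividing progenitors, fell by 3.07.

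All 4 spindle assembly checkpoint genes fell, with log2 differences of -3.29 for Bub1 and -2.91 for Ttk, both checkpoint kinases, -2.63 for Bub1b and -1.76 for Mad2l1. Bub1b, whose product BUBR1 is part of the complex that restrains the anaphase-promoting complex, was at 10.86, 10.88 and 11.33 in NB_FACS, 8.32, 8.28 and 8.59 in NB_Control, 8.07, 8.11 and 8.41 in NB_Stim and 7.81 and 8.40 in A_FACS. Mad2l1, which encodes its partner MAD2, was at 8.41, 8.38 and 8.73, then 6.53, 6.79 and 6.92, then 6.11, 5.88 and 6.22, then 5.06 and 6.03 in the same order of groups. For Bub1b only NB_FACS stood apart, whereas for Mad2l1 NB_Control also lay above NB_Stim and A_FACS.

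The partners of the anaphase-promoting complex split. Cdc20, its mitotic activator, was at 11.66, 11.46 and 11.76 in NB_FACS, 8.80, 8.95 and 9.36 in NB_Control, 8.06, 7.98 and 8.99 in NB_Stim and 7.06 and 8.44 in A_FACS. It fell by 2.59 on the log2 scale (SE 0.37, limma adjusted p = 0.00053), and Ube2c, a ubiquitin-conjugating enzyme of the complex, fell by 1.75. Pttg1, the securin that this complex destroys to let sister chromatids part, ran the other way, with 9.73, 9.73 and 9.71 in NB_FACS, 10.31, 10.09 and 9.90 in NB_Control, 10.14, 10.08 and 9.79 in NB_Stim and 10.79 and 10.59 in A_FACS. NB_FACS lay below all other arrays and A_FACS above them, while both cultures overlapped, but the NB_Control difference of 0.37 (95% interval 0.04 to 0.71) did not pass the test (limma adjusted p = 0.092). With replicate number as a block it passed, as the only gene of the 46 called higher.

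Of 7 centromere and kinetochore genes, 6 fell. The 4 subunit genes of the NDC80 complex, which holds the microtubule at the kinetochore, all fell. Log2 differences were -3.96 for Spc24, -3.83 for Ndc80, -3.09 for Nuf2 and -2.06 for Spc25. Cenpe, a kinetochore motor, was at 11.29, 11.38 and 11.70 in NB_FACS, 7.59, 7.70 and 8.30 in NB_Control, 6.47, 6.62 and 7.76 in NB_Stim and 6.12 and 7.87 in A_FACS, a difference of -3.59 between NB_Control and NB_FACS. Cenpa, the histone variant that marks the centromere, fell by 1.79. Cenpf, a large protein of the outer kinetochore, had a narrow range of 7.85 to 10.01: 9.48, 9.28 and 8.84 in NB_FACS, 8.71, 8.58 and 7.85 in NB_Control, 8.70, 9.08 and 8.45 in NB_Stim and 9.30 and 10.01 in A_FACS. Its NB_Control difference of -0.82 ± 0.29 did not pass (limma adjusted p = 0.062), and it passed with replicate number or slide as a block and without NB_FACS replicate 3.

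The chromosomal passenger complex corrects faulty attachments, and its 3 measured genes fell. Aurkb, its Aurora B kinase, was at 10.001, 10.15 and 10.60 in NB_FACS, 6.86, 6.55 and 7.15 in NB_Control, 5.81, 5.62 and 6.56 in NB_Stim and 4.69 and 6.40 in A_FACS. Birc5, which encodes survivin, was at 12.65, 12.44 and 12.45, then 9.79, 9.87 and 10.01, then 9.44, 9.58 and 9.42, then 8.18 and 9.17. The differences between NB_Control and NB_FACS were -3.40 ± 0.41 for Aurkb and -2.63 ± 0.22 for Birc5, and Cdca8, which encodes borealin, fell by 3.24.

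Of 7 spindle motors and assembly factors, 6 fell. Kif11, the plus-end motor that pushes the spindle poles apart, had the smallest difference among the 42 called genes. It was at 9.44, 9.32 and 9.33 in NB_FACS, 8.46, 8.12 and 7.71 in NB_Control, 8.46, 8.63 and 7.89 in NB_Stim and 8.37 and 8.51 in A_FACS, a difference of -1.27 or 2.41-fold (limma adjusted p = 0.0021). Log2 differences were -3.93 for Kif4, a chromosome-bound motor, -3.03 for Hmmr, a spindle pole protein, -2.39 for Dlgap5, a microtubule stabiliser, and -2.26 for Tpx2, the activator of Aurora A. Kif2c, a kinesin that takes microtubules apart at the centromere, did not pass the test, with 9.35, 9.23 and 9.66 in NB_FACS, 9.40, 9.26 and 9.63 in NB_Control, 9.59, 9.51 and 9.49 in NB_Stim and 9.16 and 9.08 in A_FACS. Its difference was 0.02 with a 95% interval of -0.32 to 0.35, measured on 1 of its 2 probes, since the other did not pass the filter on dim probes.

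All 6 genes of the central spindle and cytokinesis fell. Racgap1, which activates the furrow through ECT2, was at 7.93, 8.10 and 8.09 in NB_FACS, 5.50, 4.91 and 5.27 in NB_Control, 5.14, 4.83 and 4.91 in NB_Stim and 5.17 and 5.42 in A_FACS. NB_FACS was high and the other 8 arrays low. Racgap1 fell by 2.82 (SE 0.17, limma adjusted p = 3.4e-06), and its partner in the centralspindlin complex, Kif23, fell by 3.90. Log2 differences were -3.10 for Ect2, -2.18 for Anln, the furrow scaffold anillin, -2.13 for Prc1, the bundler of antiparallel microtubules, and -1.71 for Kif20a, a midzone kinesin. The 3 probes of Prc1 disagreed, with differences from -3.22 to -0.04. The 2 probes of Racgap1 gave -3.53 and -2.10.

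The 4 measured genes of chromosome condensation and the chromosome periphery fell, among them Mki67. Top2a, the topoisomerase that untangles sister chromatids, was at 12.92, 12.76 and 12.86 in NB_FACS, 8.97, 8.86 and 9.42 in NB_Control, 7.73, 7.94 and 9.04 in NB_Stim and 7.59 and 9.46 in A_FACS, a 13.6-fold fall from NB_FACS to NB_Control. Ncapg, a condensin I subunit, fell by 3.46, and Smc4, the condensin ATPase, fell by 1.92. Ncapg was at 10.41, 10.49 and 10.96 in NB_FACS, 7.02, 6.98 and 7.48 in NB_Control, 5.96, 6.01 and 6.86 in NB_Stim and 7.18 and 7.003 in A_FACS. Adult and NB_Control arrays overlapped for Ncapg and lay above NB_Stim.

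**Figure D2:**
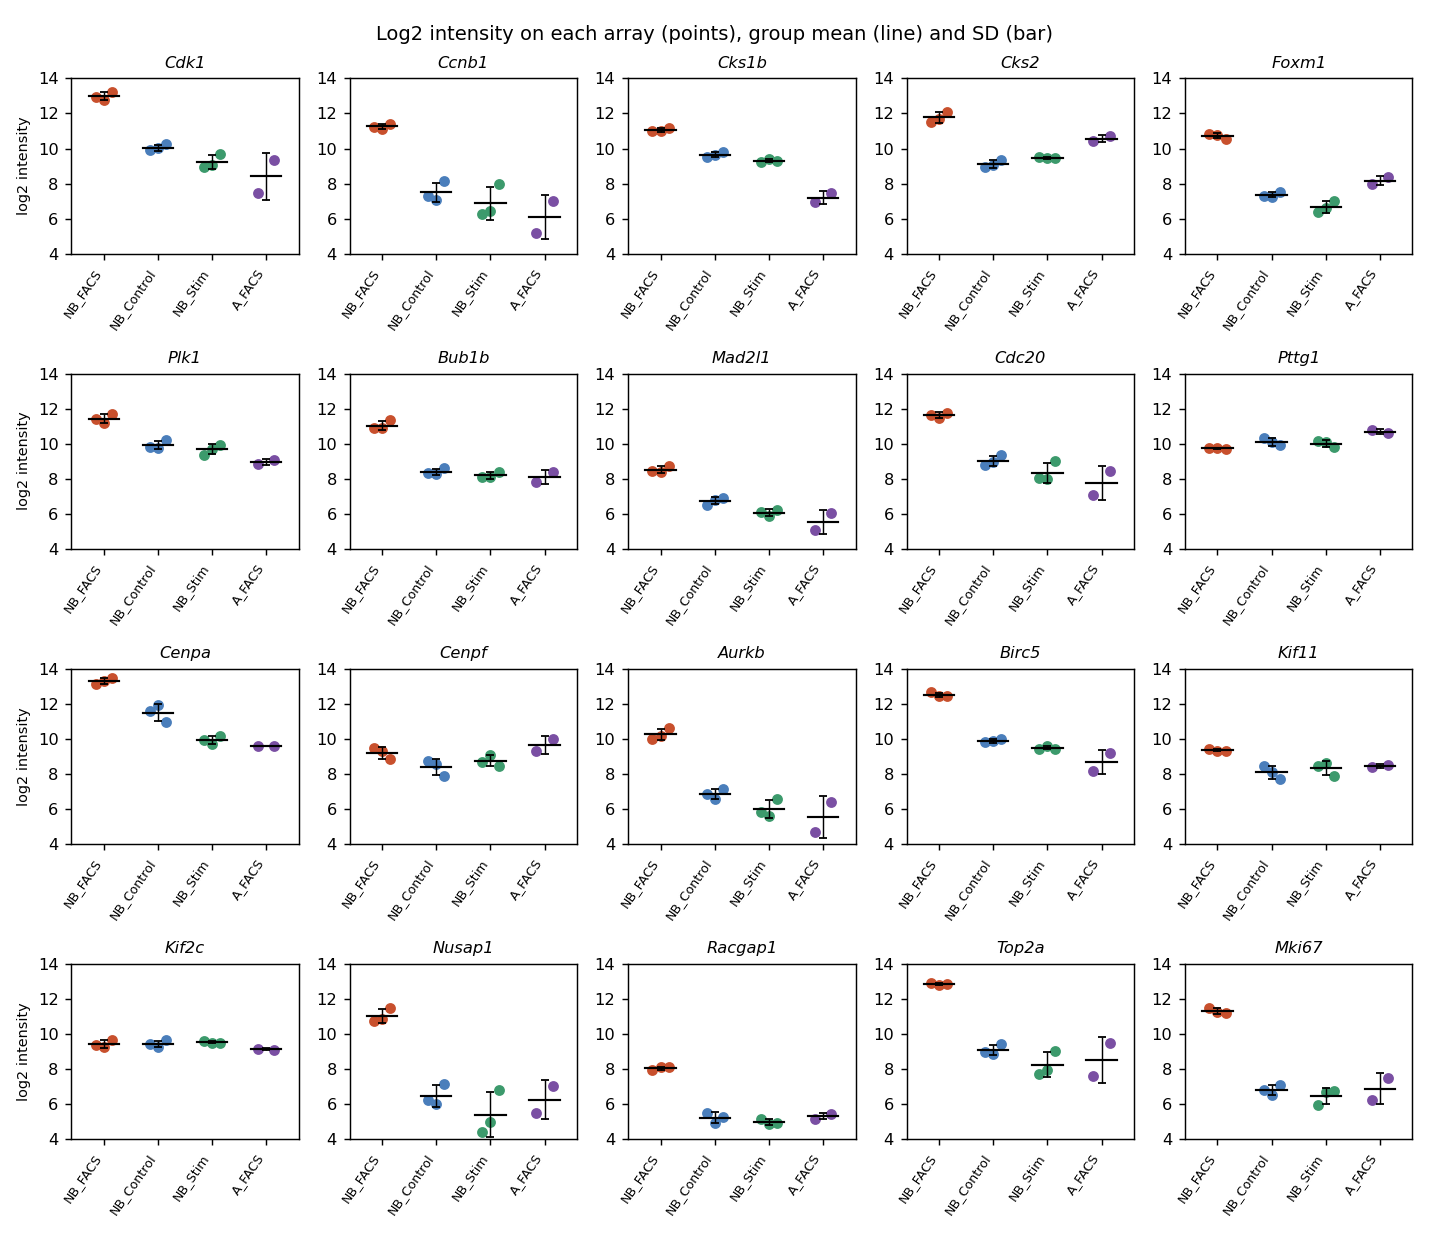
Each panel is 1 gene, with the log2 intensity of every array as a point, the group mean as a line and the SD as a bar. NB_FACS stands above the other groups except for Pttg1, Cenpf and Kif2c, and the adult points lie apart from each other in Cdk1, Ccnb1, Aurkb and Top2a.

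Transcripts of other cells moved with these groups. The summed linear intensity of 11 tested erythroid genes, globins and regulators of red cell precursors, was 149240 to 205510 in NB_FACS, 8953 and 25743 on the 2 adult arrays, 648 to 681 in NB_Control and 708 to 742 in NB_Stim. In NB_FACS 10 of the 11 were well above background on every array, and Hbb-bt was at background on every array of both cultured groups. Part of the list set the erythroid sum. Against NB_FACS, limma called 4 of the 11 lower in NB_Control (13.9% of all genes), while 7 did not pass. The median log2 difference of the 11 was -0.18 and the lowest -12.67. In NB_Stim and A_FACS 5 each were called lower (15.1% and 12.9% of all genes), with medians of -0.18 and -0.21. The 7 border macrophage markers summed to 11414 to 14155 in NB_FACS, 44322 to 87571 in NB_Control, 19328 to 32714 in NB_Stim and 289 to 778 in A_FACS, with Lyve1 not well above background in NB_Control and Cd163 not in NB_Stim. Single genes set this sum: in NB_Control 3 of the 7 were lower than in NB_FACS and 2, Pf4 and Ms4a7, higher by limma's test, and in NB_Stim 4 were lower and 2 higher. The 7 fibroblast markers summed to 2255 to 2332 in NB_FACS and 24671 to 55165 over the cultured arrays, and to 5997 to 8601 in A_FACS, where Col3a1 and Lum were not well above background. Although the A_FACS sum was higher than that of NB_FACS, 4 of the 7 were called lower and 2 higher (limma, 12.9% and 9.75% of all genes). Of 7 endothelial markers 5 were called lower in NB_Control than in NB_FACS (median -2.08), and of 7 markers of neural progenitors and neurons 4 were (median -0.82). Summed levels of 4 oligodendrocyte precursor markers were 439 to 486 in NB_FACS, 994 to 1467 in NB_Control and 8932 to 12134 in NB_Stim. From NB_Control to NB_Stim all 4 were higher, by 0.94 to 3.57 on the log2 scale. Only 1 of them passed limma's test, where 1.4% of all genes were called higher. Of 6 astrocyte markers 3 were called higher in NB_Control than in NB_FACS. Over all genes, 13.9% were called lower and 15.8% higher in NB_Control, and 15.1% and 16% in NB_Stim, both against NB_FACS. The 5 tested markers of neutrophils and granulocyte precursors summed to 440 to 4831 in NB_FACS, highest on replicate 3. They summed to 1033 to 1316 in NB_Control, 1744 to 2064 in NB_Stim and 430 to 936 in A_FACS. The part of these cells in the fall of the mitotic genes was not tested.

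Genes outside the list were described by the same counts. Among all genes 13.9% were called lower and 15.8% higher in NB_Control than in NB_FACS. Of 53 further mitotic genes, 46 fell in NB_Control and 1, Psrc1, rose, with a median of -2.25. Hmgb2, a chromatin protein of cycling cells, fell by 4.24, while Bub3, Zwint, Gtse1, Ncapd3, Iqgap3 and Ska3 did not pass the test. Of 26 replication genes 25 fell, with Mcm5 of the replicative helicase at -3.28, and the exception Cdc6 was at 0.01. Of 13 core subunits of the anaphase-promoting complex, whose own mRNA is not tied to mitosis, 4 fell and 3 rose, with a median of 0.08. Stmn1, a microtubule destabiliser, fell by 2.84, and 7 of the 9 tubulins and stathmin fell in all. Cdkn2a, an inhibitor of the cell cycle that builds up in cultured cells, rose by 2.66 (SE 0.14, limma adjusted p = 2.0e-06), and among 18 genes of its kind 5 rose and 8 fell.

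Promoters of the list share short motifs, and some are printed here because most members moved together. The CHR element (TTTGAA or TTCGAA) and the CCAAT box (CCAAT, bound by NF-Y) are known from genes of G2 and M phase, and were searched on both strands. RefSeq promoters on GRCm38.p6, from 250 bases before to 50 after the start, were matched for 39 of the 48 genes, Aurka and Smc2 included, 41 promoters in all. A CHR element was found in 75.6% of them against 19.2% of all 32851 promoters, a CCAAT box in 78% against 37.4%, and both in 68.3% against 7.52%. The E2F sites TTTCGCGC and TTTGGCGC were found in 2.44% against 0.813%, and TATAAA in 2.44% against 13.6%. Matches of different motifs may share end bases. A match is a description of the letters only.

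Stretches that end at the base before the start are given for genes that fell with both motifs (Cdk1, Top2a, Cdc20), for the CKS pair that parted in adult cells, and for Pttg1 and Kif2c, which did not fall. Capitals mark CHR elements, CCAAT boxes and the E2F site of Cdk1, in either orientation.
Cdk1 promoter, chr10:69352913-69353052, minus strand: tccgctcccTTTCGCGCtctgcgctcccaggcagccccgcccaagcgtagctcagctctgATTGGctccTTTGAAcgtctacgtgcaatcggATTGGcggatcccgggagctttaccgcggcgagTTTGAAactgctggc
Top2a promoter, chr11:99024190-99024429, minus strand: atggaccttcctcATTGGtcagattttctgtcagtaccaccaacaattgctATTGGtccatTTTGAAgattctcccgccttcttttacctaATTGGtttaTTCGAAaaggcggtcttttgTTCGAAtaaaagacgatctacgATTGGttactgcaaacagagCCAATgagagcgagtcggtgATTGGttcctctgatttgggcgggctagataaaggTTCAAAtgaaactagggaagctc
Cdc20 promoter, chr4:118437344-118437443, minus strand: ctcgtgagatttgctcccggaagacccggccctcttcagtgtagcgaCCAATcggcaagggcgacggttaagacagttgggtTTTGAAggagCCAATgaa
Cks1b promoter, chr3:89418292-89418391, minus strand: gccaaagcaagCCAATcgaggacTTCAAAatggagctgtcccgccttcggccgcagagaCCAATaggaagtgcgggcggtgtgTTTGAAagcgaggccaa
Cks2 promoter, chr13:51645132-51645231, plus strand: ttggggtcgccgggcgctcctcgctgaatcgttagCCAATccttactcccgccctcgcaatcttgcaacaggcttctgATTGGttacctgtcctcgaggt
Pttg1 promoter, chr11:43425982-43426081, minus strand: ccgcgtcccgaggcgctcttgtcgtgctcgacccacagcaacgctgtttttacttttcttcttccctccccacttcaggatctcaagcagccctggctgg
Kif2c promoter, chr4:117178773-117178892, minus strand: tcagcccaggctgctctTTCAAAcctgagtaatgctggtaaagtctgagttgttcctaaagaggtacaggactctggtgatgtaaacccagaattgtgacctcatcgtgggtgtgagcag
The Top2a stretch holds 4 CHR elements and 6 CCAAT boxes, that of Cdk1 holds 2 of each, and that of Cks1b holds 2 of each. Cks2 shows 2 CCAAT boxes and no CHR element, Kif2c 1 CHR element and no CCAAT box, and Pttg1 neither. Over the whole window, Melk, Mad2l1, Nuf2, Birc5 and Nusap1 held neither motif and fell in NB_Control, and Cenpf held both and passed only with a block or without NB_FACS replicate 3.

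The second comparison asked what the 3 cytokines changed in culture. Only Cenpa fell among the 46 genes, and none rose, by limma's test, where 2% of all genes were called lower and 1.4% higher. Cenpa was at 13.11, 13.28 and 13.46 in NB_FACS, 11.58, 11.94 and 10.96 in NB_Control, 9.93, 9.71 and 10.17 in NB_Stim and 9.60 on each adult array. NB_Control was intermediate, and the NB_Stim arrays lay just above the adult ones. The difference between NB_Stim and NB_Control was -1.56 ± 0.24, a 2.95-fold change (limma adjusted p = 0.0064). This call was lost with cultured replicates 1 and 2 averaged and with Tukey's test, which the study's methods name beside Dunnett's.

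The remaining 45 genes did not pass, yet most were lower with cytokines. The difference was negative for 41 of the 46, with a median of -0.65 against -0.00076 over all genes. An unadjusted limma p was under 0.05 in 15 of the 46, and in 2969 of all 19555 genes. The median was -0.40 without NB_Control replicate 3 and -0.89 without NB_Stim replicate 3. Every NB_Stim array lay below every NB_Control array in 17 genes, where 13.8% of all genes did so. The median was -0.69 within slide 1 and -0.51 within slide 2. Between same-numbered arrays, 43, 39 and 42 genes were lower in NB_Stim in replicates 1, 2 and 3, against 50.7%, 49.4% and 53.6% of all genes. In all 3 pairs 37 (80.4%) were lower, as were 25.7% of all genes.

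Replicate number was taken to pair the newborn arrays, which no label states. With the number as a block 7 genes fell rather than 1, while lower calls over all 19555 genes went from 392 to 711. They were Ncapg (limma adjusted p = 0.0076), Spc25 (0.011), Cenpa (0.014), Ccnb2 (0.020), Smc4 (0.034), Hmmr (0.039) and Kif23 (0.044). Their differences ran from -0.45 for Smc4 to -1.56 for Cenpa. With slide as a block 7 genes fell as well, and pairing and slide cannot be fully told apart. Cks2, a CDK1 subunit, and Cenpf stood on the other side, at 0.35 and 0.36 without passing the test (limma adjusted p = 0.42 and 0.67). For Cks2 every NB_Stim array lay above every NB_Control array, as in 10.1% of all genes.

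**Figure D3:**
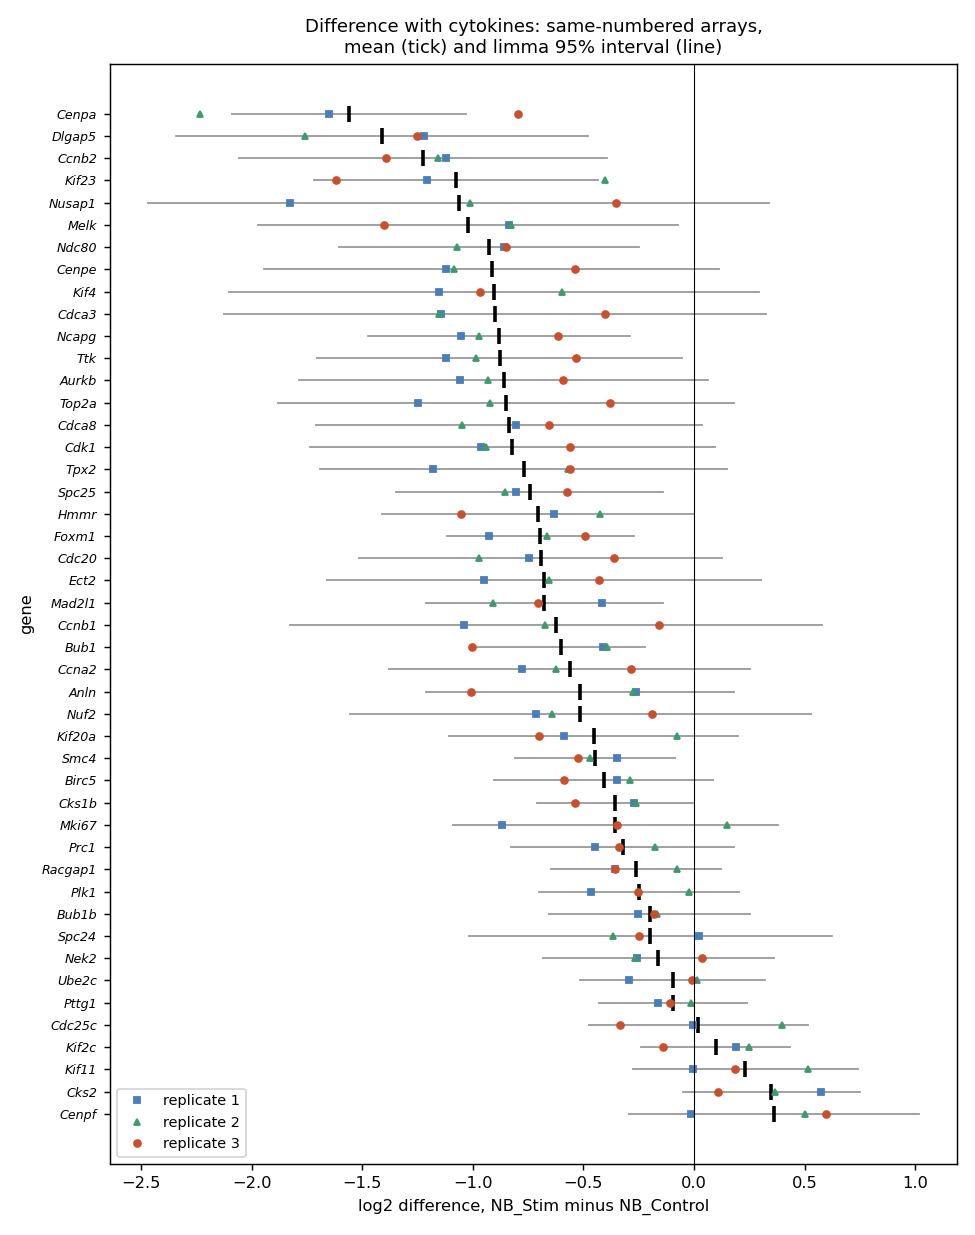
For each gene, from the lowest to the highest difference, coloured markers give NB_Stim minus NB_Control (log2) between arrays of the same replicate number, the tick is the difference of the group means and the grey line its 95% interval. The markers lie left of 0 for most genes, Cenpa is farthest left at -1.56, and Cenpf and Cks2 are farthest right.

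The 2 probes of Mki67 disagreed here, at -0.91 and 0.19, and so did those of Prc1 and Pttg1 in sign. The Mki67 probe at -0.91 was dim, with means of 3.99 in NB_Control and 3.08 in NB_Stim, against 9.62 and 9.81 for the other. In the cytokine comparison 2% of all genes were called lower. Of the wider lists, 2 of 53 further mitotic genes (Cip2a at -0.83 and Trip13 at -0.89) and 2 of 26 replication genes (Gins2 at -0.75 and Pola1 at -0.60) fell. E2f2, an activator of S phase genes, differed from them: it fell by 2.95 from NB_FACS to NB_Control (limma adjusted p = 2.3e-06) and rose by 2.21 with cytokines (limma adjusted p = 0.00018). Cdk6, a G1 kinase, fell by 1.24 with cytokines (limma adjusted p = 0.020).

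Stimulated cultures were next set against sorted newborn cells, which share NB_FACS with the first comparison. In NB_Stim 42 of the 46 genes were lower than in NB_FACS and none was higher (limma, 15.1% and 16% of all genes). An unadjusted limma p was under 0.05 in 42 of the 46, and in 7995 of all 19555 genes. The median was -3.67 against 0.11 over all genes. The range ran from -5.64 for Nusap1, 49.8-fold, to 0.28 for Pttg1, and Nusap1 was at -6.35 without NB_Stim replicate 3. Foxm1 was 16.6-fold lower, Top2a 24.4-fold, Mki67 29.0-fold and Kif23 31.5-fold. By single probes the log2 difference was -4.01 and -5.71 for Mki67 and -5.22 to -4.52 for Kif23, each with a dim probe among them. The genes that did not pass were the same 4 as in NB_Control, namely Cdc25c, Pttg1, Cenpf and Kif2c. The Kif11 difference of -1.04 did not pass Tukey's adjusted test.

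The third question was how sorted adult microglia compare with sorted newborn ones. In A_FACS 42 of the 46 genes were lower than in NB_FACS and 1, Pttg1, was higher (limma, 12.9% and 9.75% of all genes). The median difference was -3.73 against -0.01 over all genes, and 44 genes did not overlap in the lower direction, as in 26.8% of all genes (24.4% in the higher direction, here Pttg1). With both adult arrays averaged, Melk had the greatest difference, -5.70 ± 0.47, with 8.52, 8.79 and 9.17 in NB_FACS against 2.10 and 4.15 in A_FACS. It was 5.58, 5.61 and 6.07 in NB_Control and 4.75, 4.78 and 4.66 in NB_Stim, and the lower adult value was not well above background. Without that array, A_FACS replicate 1, the difference was -4.68. Pttg1 was 1.95-fold higher in the adult (0.96 ± 0.17, limma adjusted p = 0.0030), although its 2 probes gave 0.24 and 1.69.

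Cdc25c, Cenpf and Kif2c did not pass in this comparison, although Cdc25c (-0.64) passed with slide as a block and without NB_Control replicate 3. Cdk1 was 23.5-fold lower in the adult, Ccnb1 36.1-fold, Aurkb 26.1-fold and Top2a 20.05-fold. Without A_FACS replicate 1 their log2 differences were smaller, at -3.61, -4.27, -3.85 and -3.39, and without A_FACS replicate 2 they were -5.50, -6.07, -5.56 and -5.26. Kif11 differed by -0.92 (limma adjusted p = 0.027) and lost its call when any 1 sorted array was left out. Without A_FACS replicate 1 the list median was -3.33, and without A_FACS replicate 2 it was -4.13. The second adult array, higher in most of these genes, was also higher in the erythroid sum (25743 against 8953) and the endothelial sum (12878 against 6403). It was higher in the fibroblast, astrocyte, oligodendrocyte precursor, granulocyte precursor and border macrophage sums too. The microglia sum and that of neural progenitors and neurons were lower on it. The part of these cells was not tested.

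**Figure D4:**
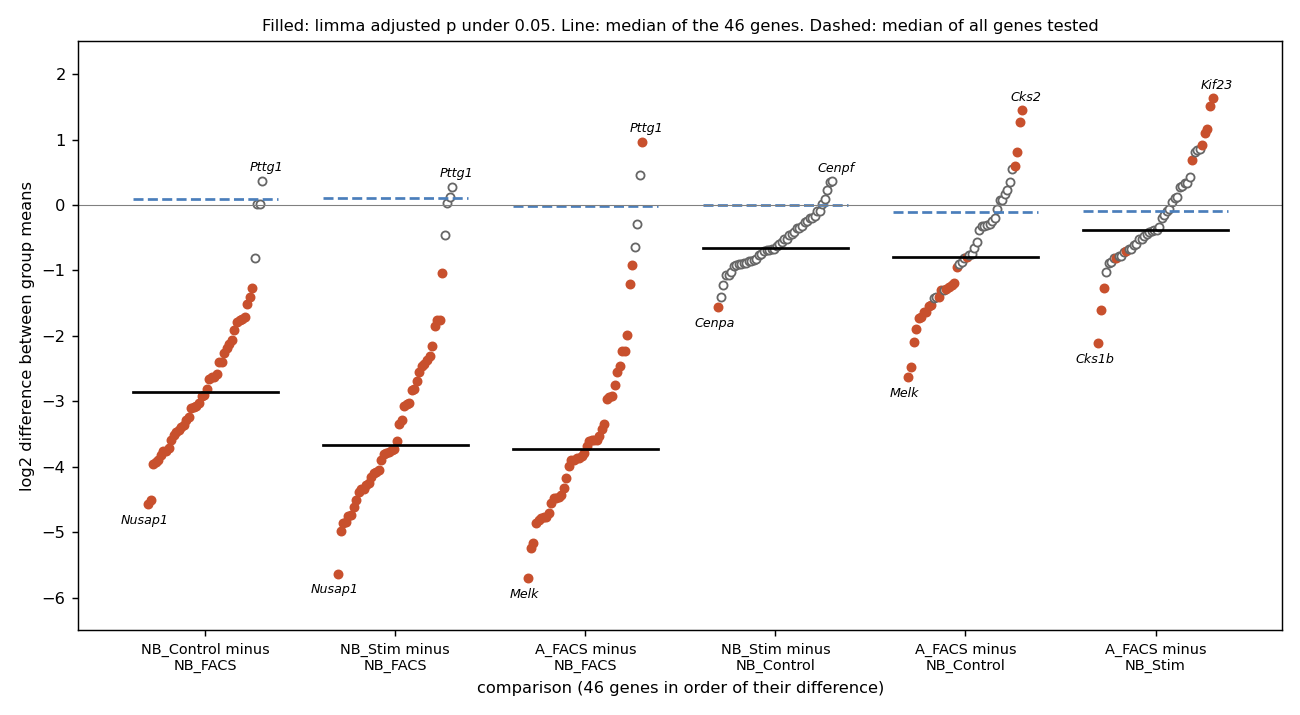
For each of the 6 comparisons, points are the log2 differences of the 46 genes in ascending order, filled where the limma adjusted p was under 0.05; the solid line is their median and the dashed line that of all genes tested. The 3 comparisons with NB_FACS reach medians of -2.86, -3.67 and -3.73, and the others lie nearer to 0.

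Adult cells were also set against the cultures. Against NB_Control, 18 of the 46 genes were lower in A_FACS and 4 higher (limma, 23.2% and 17.7% of all genes), with a median of -0.80 against -0.11. Against NB_Stim, 5 were lower and 6 higher (22.8% and 17.5% of all genes), with a median of -0.39 against -0.10. The share of members called, 22 and 11 of 46, stood against 40.8% and 40.2% of all genes called either way. The medians moved with single adult arrays. Without A_FACS replicate 1 the median against NB_Control was -0.34, and without A_FACS replicate 2 it was -1.42. The median against NB_Stim then moved to 0.19 and -0.83, so that its direction depended on which adult array was kept. With replicate number as a block 8 genes rather than 5 were lower than NB_Stim and 9 rather than 6 higher. Over all 19555 genes, 5494 were then lower and 4304 higher, against 4452 and 3417 without the block. Adult and newborn samples share only a number. Without NB_Control replicate 3 there were 11 lower calls against NB_Control, and 4110 among all 19581 genes. Without NB_Stim replicate 2 there were 2 against NB_Stim, and 3643 among all 19663 genes.

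The mRNAs of the CKS proteins, small subunits that tether CDK1 to its substrates, moved in opposite directions between cultured and adult cells. Each was measured on 1 probe. Cks1b was at 11.02, 10.98 and 11.18 in NB_FACS, 9.52, 9.65 and 9.80 in NB_Control, 9.25, 9.39 and 9.26 in NB_Stim and 6.92 and 7.45 in A_FACS. Cks2 was at 11.52, 11.69 and 12.11 in NB_FACS, 8.92, 9.08 and 9.34 in NB_Control, 9.496, 9.45 and 9.45 in NB_Stim and 10.41 and 10.70 in A_FACS. Neither gene had overlapping groups, and the order of the groups was different, with the adult lowest for Cks1b and second for Cks2. The adult was 14.7-fold below NB_FACS in Cks1b and 2.32-fold below it in Cks2. Against NB_Control the difference was -2.47 in Cks1b (SE 0.18, limma adjusted p = 7.5e-06) and 1.44 in Cks2 (SE 0.20, limma adjusted p = 0.00036). NB_Control minus NB_FACS was -1.40 in Cks1b (95% interval -1.75 to -1.05) and -2.66 in Cks2 (-3.06 to -2.26). No test between the paralogues was made.

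Foxm1 was likewise higher in the adult than in either culture, by 0.81 against NB_Control (SE 0.21, limma adjusted p = 0.012) and 1.51 against NB_Stim (SE 0.21, limma adjusted p = 0.00043), while its call against NB_Control was lost without A_FACS replicate 2 and with Tukey's test. Kif23 was higher than in NB_Stim by 1.63 (limma adjusted p = 0.0030). Melk differed by -2.63 from NB_Control, or by -1.61 without A_FACS replicate 1, where it was not well above background. Its difference of -1.61 from NB_Stim lost its call without that array and in 7 other alternatives. Ncapg and Cenpe marked the other end, with differences of -0.06 from NB_Control and 0.04 from NB_Stim and 95% intervals of -0.73 to 0.60 and -1.11 to 1.19. Of the 22 calls against NB_Control 7 held under every alternative that tested them, and of the 11 against NB_Stim 4 did. That was 22 alternatives for most genes and 21 for Melk, Bub1, Ttk, Dlgap5 and Ect2.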

How the data were processed

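RNA of 11 samples was hybridised to single-colour arrays. The deposited scanner files give 1 background-subtracted intensity per spot in arbitrary units, made with Agilent Feature Extraction 11 according to the submitters' processing notes. The authors' table of the series holds the same intensities without normalisation between arrays (62927 entries, 0 differing beyond a relative tolerance of 1e-05). Groups and replicate numbers came from the sample titles.

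Of 62976 spots 1439 were controls, and 60037 probes remained, of which 138 were dropped for outlier flags. Log2 intensities were quantile normalised over all probes. Accessions were matched to symbols through RefSeq genes (GRCm38.p6) for 36264 probes (60.4%). A probe was kept if 1 or more groups had it well above background throughout, and kept probes were averaged per gene, giving 19555 genes, 14654 of them on 1 probe. A summed marker level adds linear normalised intensities.

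Each gene was fitted with 4 group means in limma 3.58.1 (R 4.3.3, data.table version 1.17.8), with 7 residual and 2.69 prior degrees of freedom. All 6 comparisons used the moderated two-sided test with Benjamini-Hochberg adjustment per comparison over all genes, with 0.05 as the threshold on the adjusted p. The script was tested on simulated data. Figures were drawn with matplotlib 3.10.9 under Python 3.11.15. Alternatives changed the background correction (normexp, offset 50), the scaling (75th percentile), the probe filter, the probe rule and the table of the series. Others changed the slide or replicate block, the arrays in the fit and the averaging of cultured replicates. The last was Tukey's test, which the study's methods name beside Dunnett's, here on each gene's own variance with Benjamini-Hochberg adjustment over all genes.

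Arrays of the same replicate number deviated together from their group means, with 9 correlations of 0.11 to 0.49, all over 0.1, so numbers were taken to pair the newborn arrays. Replicates 1 and 2 of different groups correlated about as well across numbers (0.19 to 0.36), and replicate 3 is alone on slide 2, so that pairing and slide cannot be fully told apart. The study defines its samples as independent biological replicates. Cultured replicates 1 and 2 lay close together, with a mean absolute log2 difference over all genes of 0.17 in NB_Control and 0.19 in NB_Stim. Replicate 3 differed from them by 0.41 in NB_Control and by 0.48 and 0.50 in NB_Stim. An alternative averaged replicates 1 and 2 for this reason, and whether they share a preparation was not tested. The members, their role classes and the companion and marker lists were chosen with earlier results of these data known. By rule, 16 members and the members with the largest and smallest absolute difference in each comparison were given on every array, and any member could be named. Proteins and probe sequences were not used here. A further microglia marker is not reported here.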

Additional observations from a re-analysis of the deposited data

How the results depend on the processing

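The 42 falls in NB_Control kept their call under every alternative that tested them (22, or 21 for the 5 genes that the strictest probe filter left out), as did 41 of 42 in NB_Stim against NB_FACS and 42 of 43 calls in the sorted adult comparison; the exceptions were Kif11 in both. Normexp correction drew the medians in to -2.23, -2.56 and -2.58 for NB_Control, NB_Stim and A_FACS against NB_FACS. A single gene, 1, was called higher in NB_Control than NB_FACS with normexp, the brightest probe, the slide block and the replicate block, where 0 had been.

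The cytokine comparison, with 1 fall, had 2 with normexp, 7 with the slide block and 7 with the replicate block. It had 0 with cultured replicates 1 and 2 averaged, 3 with only the groups compared and 0 with Tukey's test. Over all 19555 genes lower calls were 392 in the main fit, and 624, 893, 711, 58, 263 and 96 in the same order. Leaving out arrays gave 1 to 3, with 3 without either adult array or without NB_Stim replicate 3. Falls of A_FACS against NB_Stim, 5 in all, were 3 with 75th percentile scaling, 8 with the replicate block, 2 with cultured replicates averaged, 3 with only the groups compared, 1 with Tukey's test and 1 to 16 with an array left out (2 without NB_Stim replicate 2). Against NB_Control, Tukey's test gave 6 lower and 1 higher, and leaving out arrays gave 7 to 26 lower (11 without NB_Control replicate 3) and 2 to 4 higher. Beyond these counts and that of 1 higher gene above, the replicate block moved no count by over 1.5 times. The cause of these shifts was not tested.

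Signs changed in 1 or more alternatives for 2 genes in NB_Control against NB_FACS, 6 with cytokines, 1 in NB_Stim against NB_FACS, 0 in A_FACS against NB_FACS, 11 against NB_Control and 22 against NB_Stim, none of them a called gene; in the adult comparisons some lay far from 0, such as Cdk1 against NB_Stim (-0.81, range -1.76 to 0.14) and Top2a against NB_Control (-0.56, range -1.50 to 0.37). Cdc25c turned to -0.018 with normexp, -0.047 with 75th percentile scaling and -0.21 to 0.18 with arrays left out against NB_FACS in NB_Control. In NB_Stim against NB_FACS it turned to -0.0010 with normexp and ran from -0.077 to 0.20, and in the cytokine comparison it turned to -0.069 with averaged cultures and ran from -0.11 to 0.25. Mki67 with cytokines turned to 0.025 with normexp and to 0.19 with the brightest probe or with probes above background on all arrays. Ncapg, adult against NB_Control, turned to 0.013 with 75th percentile scaling and to 0.14 with either block, and ran from -0.15 to 0.10. Cenpe, adult against NB_Stim, turned to -0.16 with averaged cultures and ran from -0.83 to 0.92. With 2 or 3 arrays a group, signal over background limits Melk, Ttk, Ect2 and Dlgap5 in adult cells. It also limits single probes in the cultures. A Kif23 probe averaged 2.90 in NB_Control and 2.36 in NB_Stim, and a Racgap1 probe 2.19 and 2.18. The lowest intensity well above background was 3.03 to 3.69 on the NB_Control arrays and 2.60 to 4.03 on the NB_Stim arrays.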
